A study of Homo sapiens with 6 samples.

Results

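Genes for the extracellular matrix and its mesenchymal remodelling were compared between WT HCT116 cells and their LSD1 KO derivative. The group was a list of 35 genes, matched by symbol to 35 of the 60240 Ensembl identifiers in the count table. It held collagens, laminins, matrix proteoglycans, matricellular proteins, collagen-crosslinking oxidases, matrix proteases with their inhibitors, and vimentin. HCT116 is an established human colorectal carcinoma line, and LSD1, encoded by KDM1A, removes methyl groups from H3K4. RNA-seq was performed on 3 WT libraries and 3 LSD1 KO libraries grown in the same medium, with no other treatment. The knockout was made with Cas9 and 1 guide against the first coding exon, followed by short puromycin selection and expansion of individual clones. The sources used here do not say how many clones the libraries came from, so clone and knockout cannot be told apart. The study states that its experiments were done with biological replicates, without saying whether these libraries were separate cultures or clones, so the p-values measure the spread between these libraries.

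The extracellular matrix is the protein scaffold outside cells. Epithelial cells sit on a basement membrane, which is built from laminin heterotrimers, type IV collagen, perlecan and agrin. Connective tissue cells secrete most fibrillar collagen, fibronectin and SPARC. Vimentin, an intermediate filament, is a common marker of mesenchymal cells. Secreted and membrane-bound proteases cleave the matrix, TIMP proteins block the metalloproteinases, and the plasminogen activator PLAU acts at the cell surface through its receptor PLAUR.

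The libraries held 25379279 to 29186963 counts. Levels are given in CPM, counts scaled to a common library size, and the floor of 3 counts lay at 0.0994 to 0.114 CPM on this scale, a limit for counting error only. The labels held for the targeted gene, since KDM1A was at 231, 224 and 214 CPM in WT and at 29.9, 27.6 and 27.8 CPM in LSD1 KO. Markers of other cell types were low. Of 11 fibroblast and stroma markers, 7 were at or under the floor in every library, including PDGFRA, LUM and POSTN with 0 counts. Their summed level was 8.08 to 10.9 CPM in WT and 9.91 to 12.0 CPM in LSD1 KO. The 10 colorectal epithelial markers summed to between 2201 and 4102 CPM in WT and between 2613 and 3391 CPM in LSD1 KO. However, VIL1 and KRT20, markers of differentiated colon epithelium, stayed under 1 CPM in every library, the highest value being 0.572 CPM for KRT20. EPCAM, an epithelial adhesion protein, was at 204 ± 39.2 CPM (SD, n = 3) in WT and 104 ± 28.3 CPM (SD, n = 3) in LSD1 KO, and was lower with the replicate block described later (q value 0.0788 from edgeR). It was the only 1 of 9 tested epithelial markers called there, beside 1.6% of all genes, and the sign was positive for 4 of the 9. Without pair 2, KRT19 and CLDN4 were called higher and EPCAM lower, beside 3.05% and 2.79% of all genes. Of the 9 markers, 2 were lower in LSD1 KO without overlap between the groups, beside 3.51% of all genes. In bulk RNA, fewer cells expressing a gene and less of its RNA per cell cannot be told apart. The 5 matched endothelial markers summed to at most 4.28 CPM in any library. The 6 haematopoietic markers, of which PTPRC and CD3E were at or under the floor, summed to 16.6 to 20.6 CPM in WT and 22.8 to 33.4 CPM in LSD1 KO. Most of this was CD68, which was higher without overlap between the groups, as for 4.23% of all genes tested. CD68 was called higher without pair 2 (q value 4.34e-05 from edgeR) but not with all pairs (0.132). The part of these markers in the results was not tested.

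Upstream sequence is shown first for HSPG2, LAMB2, SPARC and the COL4A1-COL4A2 pair, as members whose expression is described in detail and whose windows were in the reference. HSPG2 and LAMB2 were higher in each LSD1 KO library than in the WT library of the same number. SPARC was close to the floor in every WT library and was not in 2 of the LSD1 KO libraries. COL4A1 and COL4A2 lie head to head on chromosome 13, and neither was appreciably expressed. The windows are the 250 bases before each gene start, or all 126 bases between the 2 starts for the type IV collagen pair. Positions are chr1:21937311-21937560 (minus strand) for HSPG2, chr3:49133051-49133300 (minus strand) for LAMB2, chr5:151686916-151687165 (minus strand) for SPARC and chr13:110307158-110307283 (plus strand) for the pair, from RefSeq on GRCh38.p14. Capitals mark matches on either strand to 4 motifs, of which neighbouring copies may overlap. The GC box was searched as GGGCGG. The letters CCAAT stood for the CCAAT box. The TATA box was read as TATAAA. The AP-1 element was written as TGANTCA.
HSPG2: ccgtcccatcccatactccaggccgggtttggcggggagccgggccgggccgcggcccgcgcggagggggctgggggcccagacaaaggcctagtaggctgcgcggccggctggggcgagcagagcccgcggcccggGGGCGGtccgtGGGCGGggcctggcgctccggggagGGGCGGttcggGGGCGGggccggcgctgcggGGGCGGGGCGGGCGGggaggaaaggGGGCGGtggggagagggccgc
LAMB2: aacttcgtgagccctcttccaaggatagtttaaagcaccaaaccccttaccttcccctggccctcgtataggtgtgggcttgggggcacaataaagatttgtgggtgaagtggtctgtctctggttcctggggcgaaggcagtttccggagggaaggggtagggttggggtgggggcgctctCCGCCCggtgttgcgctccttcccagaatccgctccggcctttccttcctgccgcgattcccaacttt
SPARC: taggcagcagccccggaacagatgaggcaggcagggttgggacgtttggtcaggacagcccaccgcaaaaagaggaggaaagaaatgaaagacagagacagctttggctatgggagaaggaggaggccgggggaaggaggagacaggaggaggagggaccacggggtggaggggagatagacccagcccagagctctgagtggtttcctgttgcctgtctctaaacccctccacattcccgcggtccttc
COL4A1-COL4A2: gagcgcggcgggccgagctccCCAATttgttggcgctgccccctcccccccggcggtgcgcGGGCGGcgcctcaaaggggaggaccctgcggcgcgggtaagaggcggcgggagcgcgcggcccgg

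The HSPG2 window held 8 GC boxes and 33 CpG sites, against a median of 11 CpG sites over 27305 promoters of the same length. LAMB2 had 1 GC box and 12 CpG sites. The SPARC window contained none of the 4 motifs and 7 CpG sites. The stretch between COL4A1 and COL4A2 held 1 GC box, 1 CCAAT box and 20 CpG sites. Among all promoters, 42.3% had a GC box, 33.0% a CCAAT box, 11.1% a TATA box and 6.6% an AP-1 element. RefSeq windows were matched for 26 of the 35 members, of which 21, 10, 3 and 3 held these motifs in the same order. A match to these letters is a description and says nothing of binding.

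HCT116 cells expressed most, but not all, of the listed matrix genes. Of the 60240 genes in the table, 17672 had enough counts for the test. The list split into 25 members with enough counts for the test, 6 with too few and 4 at or under the floor in all libraries. The last 4 were COL1A2, COL3A1, COL4A2 and MMP13. The 6 with too few counts were COL5A1, COL4A1, SPARC, TNC, MMP1 and MMP7. The plot of expression by library shows this range, from LAMA5 at a WT mean of 403 CPM down to single counts.

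**Figure D1:**
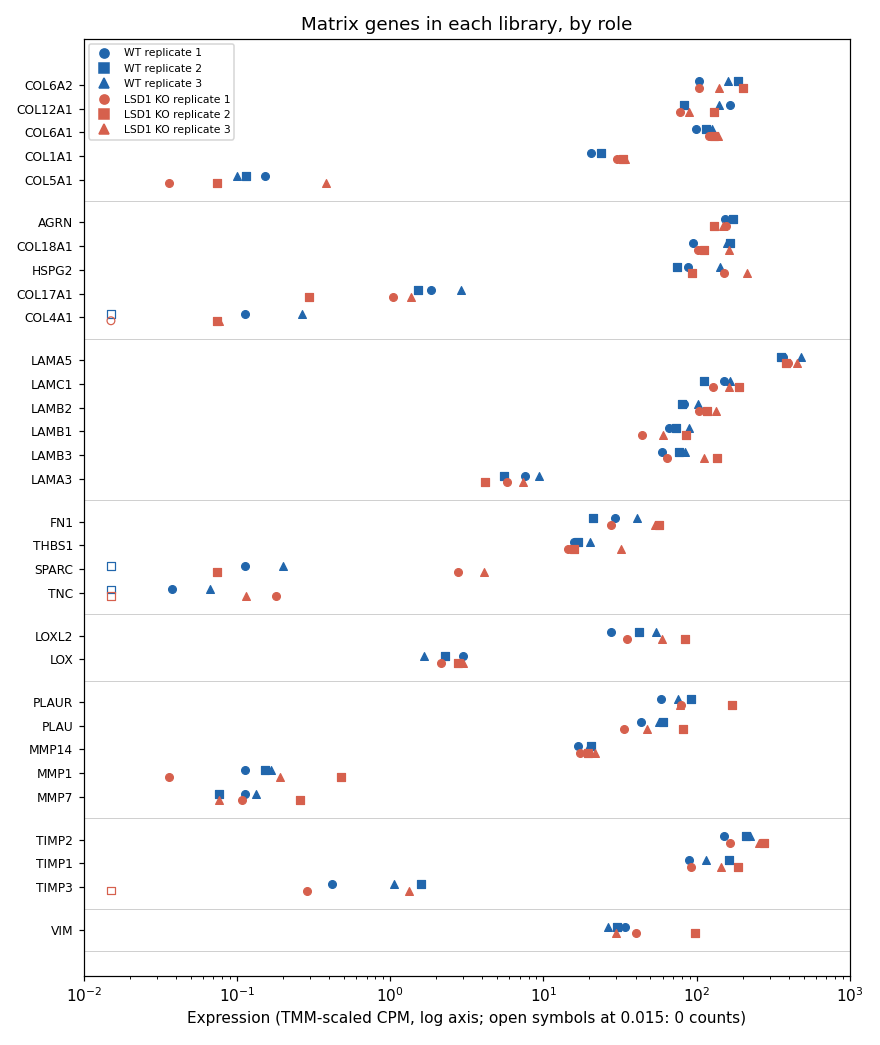
Expression of the members above the floor in at least 1 library, on a log axis of TMM-scaled CPM, with WT libraries in blue, LSD1 KO libraries in red and a symbol for each replicate number. Open symbols at the left stand for 0 counts. Most members overlap between the groups, COL1A1 and LAMB2 are higher in all LSD1 KO libraries, and COL17A1 is lower.

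LSD1 KO and WT libraries were then compared with edgeR's quasi-likelihood test over 17672 genes and Benjamini-Hochberg adjustment, with calls made under a q value of 0.1. Without a replicate block, 0 of the 25 tested members passed, where 0.00566% of all genes did (KDM1A). Of these members, 2 had an unadjusted p under 0.05, as did 3.12% of all genes, and the q value was 0.999 for each. DESeq2's Wald test also called 0 members, with 0.37% of all genes called. Same-numbered libraries deviated together, so the replicate number was added as a block. With this block 3 members passed, COL1A1, HSPG2 and LAMB2, and each was higher in LSD1 KO. Of all genes 1.6% were called, 1.05% higher and 0.549% lower. The same 3 members passed when transcript length and GC content were also corrected for, with 2.41% of all genes called. With 2 pairs in place of 3, COL1A1 and HSPG2 lost their calls without pair 1 or without pair 3, and LAMB2 without pair 3, while their log2 fold changes stayed between 0.43 and 0.56.

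The median log2 fold change over the 25 tested members was 0.19 without the block and 0.16 with it, beside 0.00082 and 0.0030 over all genes tested. Leaving out LSD1 KO library 2 took the unblocked median to 0.034. A positive log2 fold change was found for 17 of the 25 without the block. The members were chosen with earlier results of these data known, so this count is a description. Within pairs 1, 2 and 3, the median log2 difference over the 24 members with more than 3 counts in every library was 0.051, 0.30 and 0.14. Over all genes filtered in this way it was 0.013, -0.0013 and -0.0011. The median was therefore positive in every pair and differed most from that of all genes in pair 2. Of these 24 members, 10 were higher in LSD1 KO in all 3 pairs, and 2, COL17A1 and LAMA3, were lower in all 3. Over 16917 genes filtered in this way, 19% were higher and 17.7% lower in all 3 pairs.

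**Figure D2:**
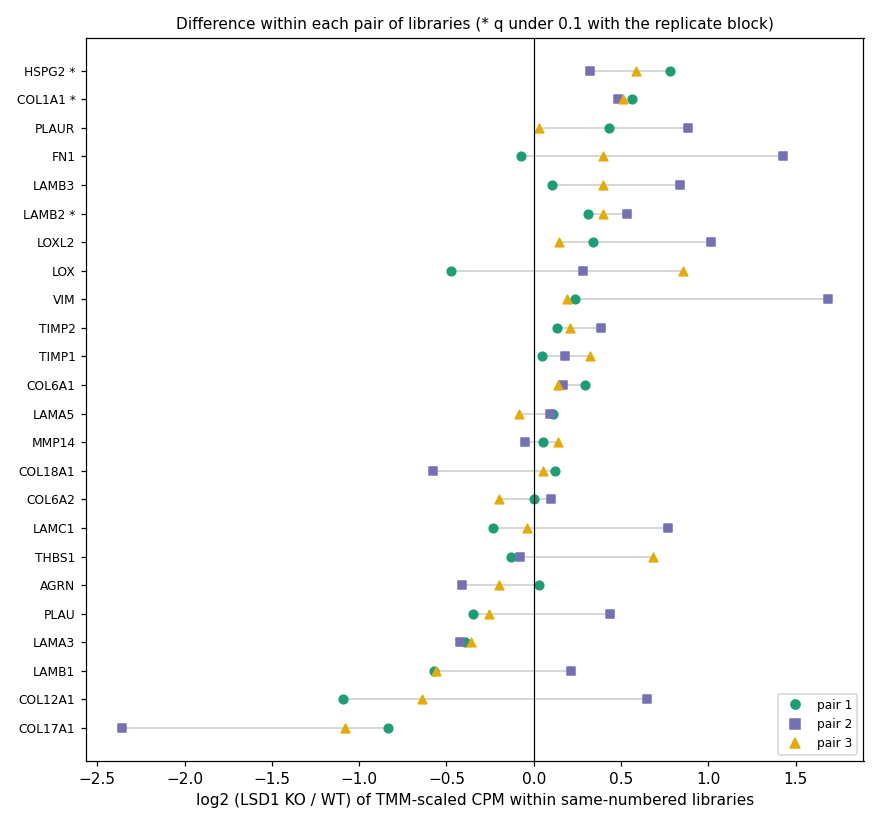
Log2 ratio of LSD1 KO to WT within each pair of same-numbered libraries, for the 24 members with more than 3 counts in every library. Asterisks mark a q value under 0.1 in edgeR with the replicate block. COL1A1 and LAMB2 have 3 close positive values, whereas COL12A1, LAMB1 and LAMC1 are positive in pair 2 and negative in pairs 1 and 3.

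Type I collagen is normally assembled from 2 COL1A1 chains and 1 COL1A2 chain, and is the main fibrillar collagen of connective tissue. COL1A1 (ENSG00000108821, chromosome 17 from 50184101 to 50201631, GRCh38) was at 20.4, 23.8 and 23.9 CPM in WT libraries 1, 2 and 3. In LSD1 KO libraries it was at 30.1, 33.2 and 34.0 CPM. Each LSD1 KO library was above each WT library. Non-overlap in this direction was seen for 2 of the 25 tested members and for 4.23% of all genes tested. The exact permutation test gave p = 0.1 (two-sided), the smallest p that 3 libraries against 3 allow, a value that non-overlap fixes. The log2 fold change of COL1A1 was 0.52 (standard error 0.16, q value 0.999 from edgeR) without the block. With the block the estimate stayed at 0.52 (standard error 0.098, q value 0.0628 in edgeR), a 1.43-fold higher mean. The differences within pairs, 0.56, 0.48 and 0.51 on the log2 scale, were nearly alike. When pair 1 or pair 3 was left out of the blocked edgeR fit, the log2 fold change was 0.50 or 0.53 and the q value 0.113 or 0.347.

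COL1A2, the partner chain of COL1A1, had 1 count in WT library 3 and 0 counts in all other libraries. COL3A1, a fibrillar collagen of elastic tissues, had at most 3 counts in any library. COL5A1, which helps to start fibril assembly, had between 1 and 10 counts. Thus the COL1A1 transcript was detected without comparable amounts of its usual partner in both groups.

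The beaded-filament collagen VI needs COL6A1, COL6A2 and usually COL6A3 chains. COL6A1 was at 98.7, 115 and 126 CPM in WT and at 121, 129 and 139 CPM in LSD1 KO, so the groups overlapped. COL6A2 ranged from 103 to 188 CPM in WT and from 103 to 201 CPM in LSD1 KO. Per kilobase of canonical transcript, the WT levels of COL6A1 and COL6A2 were 27.0 ± 3.31 and 43.7 ± 12.5 CPM per kb (SD, n = 3). COL6A3, which is not in the list, was at 0.0581 ± 0.0068 CPM per kb in WT (SD, n = 3). COL6A3 counts were 17, 14 and 20 in WT and 7, 8 and 7 in LSD1 KO, and its q value was 0.354 from edgeR with the block.

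COL12A1 encodes a fibril-associated collagen that decorates collagen bundles. Its expression was 165, 83.2 and 139 CPM in WT libraries 1, 2 and 3 and 77.6, 131 and 89.7 CPM in LSD1 KO libraries. The LSD1 KO library was lower in pairs 1 and 3, by log2 differences of -1.09 and -0.64, and higher in pair 2, by 0.65. For COL12A1 the blocked edgeR estimate was -0.37 on the log2 scale (standard error 0.28) at a q value of 0.614. Leaving out pair 2, the pair of opposite sign, took this estimate to -0.88 (standard error 0.11, q value 1.83e-05). A larger estimate had to follow once the pair of opposite sign was gone, so this q value is a description. Without pair 1 or pair 3 the estimate was 0.0050 or -0.22 (q value 0.997 or 0.989).

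Perlecan, encoded by HSPG2, is a large heparan sulfate proteoglycan that links laminin and collagen IV networks and binds growth factors. HSPG2 (ENSG00000142798, chromosome 1 from 21822244 to 21937310) was at 87.8, 74.5 and 142 CPM in WT and at 151, 93.2 and 213 CPM in LSD1 KO. The groups overlapped, since WT library 3 exceeded LSD1 KO library 2. In each pair the LSD1 KO library was higher, by log2 differences of 0.78, 0.32 and 0.59. The log2 fold change was 0.59 (standard error 0.34, q value 0.999 from edgeR) without the block and 0.56 (standard error 0.11, q value 0.0582) with it. When pair 1, 2 or 3 was left out, the log2 fold change with the block was 0.46, 0.66 or 0.56 and the q value 0.107, 0.000191 or 0.187. HSPG2 exons overlap those of LDLRAD2 on the other strand over 11.7% of their length, and LDLRAD2 had at most 20 counts in any library.

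Agrin, the other basement membrane proteoglycan of the list, organizes receptors at the cell surface. AGRN was at 153, 173 and 170 CPM in WT and at 156, 130 and 148 CPM in LSD1 KO (q value 0.468 from edgeR with the block). COL18A1, the source of endostatin, ranged from 94.7 to 166 CPM in WT and from 103 to 163 CPM in LSD1 KO. As 18.5% of its exonic bases are shared with SLC19A1 on the opposite strand, its counts may be mixed. Strandedness of the library kit is not given in the sources used here.

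COL17A1, a transmembrane collagen of hemidesmosomes, was the member with the most negative log2 fold change among those with more than 3 counts in every library. It was at 1.85, 1.51 and 2.88 CPM in WT and at 1.04, 0.295 and 1.36 CPM in LSD1 KO. Each LSD1 KO library was under each WT library, as for 3.51% of all genes tested (two-sided exact permutation test, p = 0.1). COL17A1 did not pass in edgeR with the block, where its log2 fold change was -1.32 (SE 0.37, q value 0.181). Counts were low, from 8 to 87 per library.

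The main chains of basement membrane collagen IV were close to absent. COL4A2 had 2 counts in LSD1 KO library 3 and 0 counts elsewhere. COL4A1 was read 3, 0 and 8 times in WT libraries and 0, 2 and 2 times in LSD1 KO libraries. These are the genes that flank the 126 bases printed above. By contrast, other type IV chains were measured. COL4A3, COL4A4 and COL4A5 were at 8.97 ± 1.01, 14.6 ± 2.64 and 23.4 ± 1.38 CPM (SD, n = 3), and none passed in edgeR with all 6 libraries, with or without the block. Without pair 2, which had the opposite sign for COL4A5, its q value was 0.0222 in the blocked edgeR fit, which is a description. Without pair 1 or pair 3 it was 0.920 or 0.999.

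Laminins are made of an alpha, a beta and a gamma chain. Chains were compared per kilobase of canonical transcript, since longer transcripts yield more counts. Among the 6 laminin chains of the list, LAMA5 stood highest in WT cells at 35.2 ± 6.01 CPM per kb, and LAMA3 lowest at 0.703 ± 0.181 (SD, n = 3). The beta chains LAMB3, LAMB2 and LAMB1 were at 18.3 ± 3.21, 15.6 ± 2.02 and 13.5 ± 2.12 CPM per kb. The gamma chain LAMC1 was at 18.0 ± 3.60 CPM per kb. Each chain and the next in the order LAMB3, LAMC1, LAMB2 and LAMB1 differed by less than the sum of their SDs. LAMB3, which in epithelia pairs with LAMA3, was therefore more abundant than LAMA3 as a transcript in both groups.

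**Figure D3:**
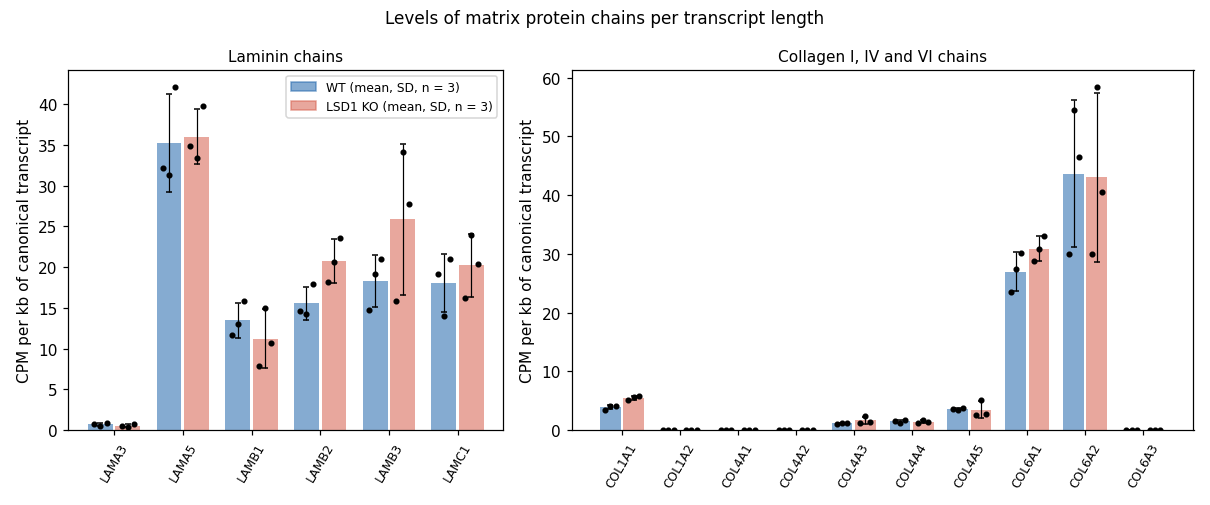
Level of laminin chains (left) and of collagen I, IV and VI chains (right) in CPM per kilobase of canonical transcript. Bars are means with SD of 3 libraries and dots are single libraries. COL1A2 and COL6A3 lie near 0 beside their partner chains, COL4A1 and COL4A2 both lie near 0, and LAMA3 is far below LAMA5.

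LAMB2 (ENSG00000172037, chromosome 3 from 49121114 to 49133050) was the laminin chain that differed in the blocked fit. It was at 83.2, 81.0 and 102 CPM in WT and at 103, 117 and 134 CPM in LSD1 KO. The groups did not overlap, as for 4.23% of all genes tested in this direction (two-sided exact permutation test, p = 0.1). WT library 3 and LSD1 KO library 1 lay close together. Its log2 fold change was 0.41 (standard error 0.17, q value 0.999 from edgeR) without the block and 0.41 (standard error 0.089, q value 0.0983) with it. This q value is just inside the threshold. It was 0.0903 without pair 1, 0.0737 without pair 2 and 0.413 without pair 3, at log2 fold changes of 0.46, 0.34 and 0.43.

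LAMB1, the alternative beta chain, was at 65.8, 73.2 and 89.2 CPM in WT and at 44.3, 85.0 and 60.5 CPM in LSD1 KO. Within pairs the log2 difference was -0.57, 0.21 and -0.56, so pair 2 again had the other sign. Its q value was 0.447 from edgeR with the block and 0.00121 without pair 2, at a log2 fold change of -0.58. As that fit leaves out the pair of opposite sign, its q value is a description. Without pair 1 or pair 3 the q value was 0.671 or 0.986, at a log2 fold change of -0.17 in both fits. LAMB1 shares 1.61% of its exonic bases with DLD, an abundant gene on the other strand.

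LAMB3 was at 59.4, 76.8 and 84.5 CPM in WT and at 63.7, 137 and 111 CPM in LSD1 KO, higher in all 3 pairs. Its q value was 0.208 from edgeR with the block, and 0.0549, 0.312 or 0.456 without pair 1, 2 or 3. LAMA3 had log2 differences of -0.39, -0.42 and -0.36 within pairs and a q value of 0.349 from edgeR with the block. Its counts were 112 to 283 per library. LAMA5 and LAMC1 had log2 fold changes of 0.041 (standard error 0.087) and 0.16 (standard error 0.17) with the block.

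Fibronectin, the cell-adhesive glycoprotein of provisional matrix, is encoded by FN1. FN1 was at 29.3, 21.0 and 40.6 CPM in WT and at 27.8, 56.5 and 53.5 CPM in LSD1 KO. Pair 2 carried most of the difference, with within-pair values of -0.075, 1.43 and 0.40 on the log2 scale. FN1 had a log2 fold change of 0.58 in edgeR with the block (standard error 0.24, q value 0.348), 0.90 (q value 0.067) without pair 1 and 0.15 (q value 0.683) without pair 2.

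SPARC encodes osteonectin, a collagen-binding matricellular protein. WT libraries 1, 2 and 3 held 3, 0 and 6 SPARC counts, and LSD1 KO libraries held 77, 2 and 108. In CPM, these were 0.113, 0 and 0.199 in WT and 2.75, 0.0737 and 4.09 in LSD1 KO. Expression was thus well above the floor in LSD1 KO libraries 1 and 3, whereas LSD1 KO library 2 was at or under the floor and the groups overlapped. Across all 6 libraries SPARC did not reach the count filter of edgeR. Its q value was 0.854 with DESeq2's Wald test and 0.00562 in edgeR without that filter, where 0.337% of all genes were called. It was 0.097 when LSD1 KO library 2 alone was left out, with 0.142% of genes called. Without pair 2 it was 1.54e-06 in the blocked fit. In both fits that left out LSD1 KO library 2, SPARC passed the filter only through LSD1 KO libraries 1 and 3, where it is high, so these calls are a description and support nothing. Of the 11 fibroblast and stroma markers, 7, among them DCN and LUM, were at or under the floor in every library. The 3 that were tested had positive log2 fold changes without the block, at a median of 0.20, and none was called with or without it. Their part in the SPARC counts was not tested.

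THBS1, an adhesive glycoprotein that can activate latent TGF-beta, was at 15.8, 16.8 and 20.2 CPM in WT and at 14.4, 15.9 and 32.3 CPM in LSD1 KO. LSD1 KO library 3 was thus the only one outside the WT range on the high side. TNC, tenascin C, had at most 5 counts in any library.

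VIM varied widely among the LSD1 KO libraries. It was at 34.2, 30.4 and 26.3 CPM in WT and at 40.3, 97.7 and 30.0 CPM in LSD1 KO. LSD1 KO library 2 was far above the others, and the log2 differences within pairs were 0.24, 1.69 and 0.19. Its log2 fold change was 0.89 (standard error 0.40, q value 0.999 in edgeR) without the block and 0.71 (standard error 0.26, q value 0.301) with it. Without pair 2 it was 0.20 (q value 0.491), and without pair 3 it was 0.97 (q value 0.0975). Exons of VIM overlap those of VIM-AS1 on the other strand over 12.7% of their length, and VIM-AS1 had at most 133 counts.

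**Figure D4:**
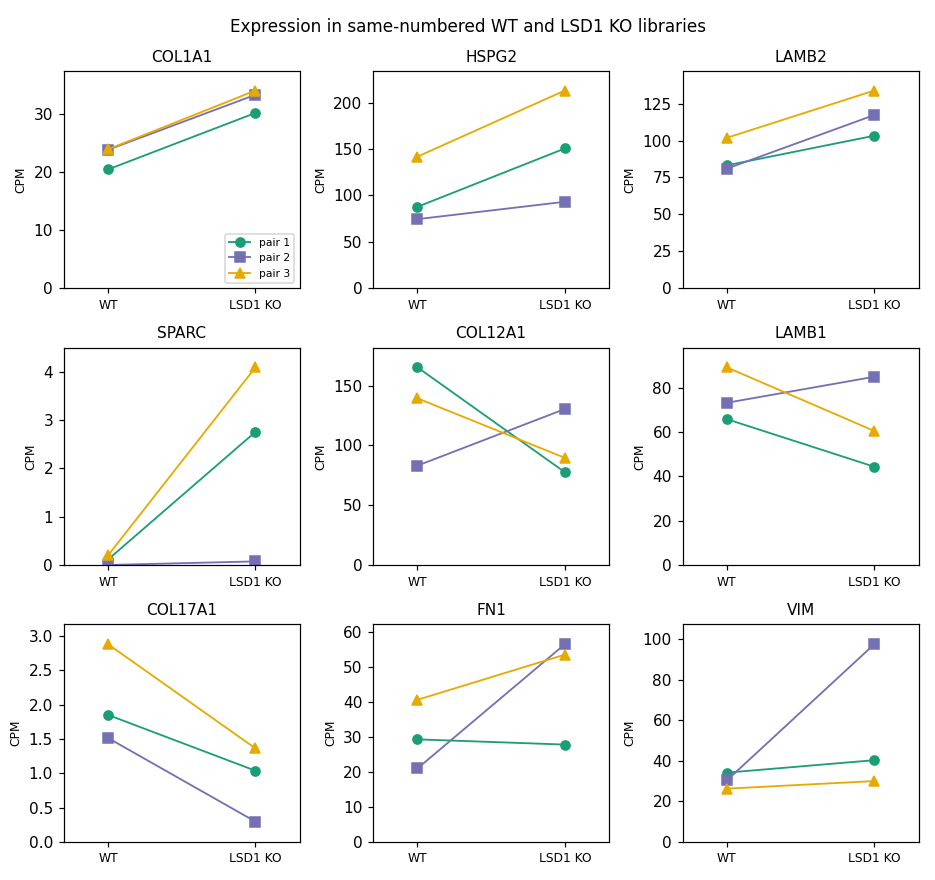
CPM of 9 members in WT and LSD1 KO libraries, with a line for each same-numbered pair and each vertical axis starting at 0. All lines of COL1A1 and LAMB2 rise, and in LAMB2 those of pairs 1 and 2 cross. In SPARC, COL12A1, LAMB1 and VIM, pair 2 departs from pairs 1 and 3.

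Pairs did not always have the same sign. Of the 24 members with more than 3 counts in every library, 7 (29.2%) had a difference in pair 2 opposite in sign to that of pairs 1 and 3. Among all genes filtered in this way it was 22.3%, near the share among members. These 7 were COL6A2, COL12A1, COL18A1, LAMB1, LAMC1, MMP14 and PLAU. Pair 1 was opposite to the others in 3 members (26.1% of all genes) and pair 3 in 2 (15% of all genes). With 1 library per group in each pair, the difference between pairs was not tested. Leaving out pair 2 raised the calls among members to 6, while 5.85% of all genes were called (3.05% higher and 2.79% lower). COL1A1, HSPG2, LAMB2 and SPARC were then higher and COL12A1 and LAMB1 lower in LSD1 KO. For COL12A1 and LAMB1 the pair left out was the one of opposite sign, so their calls are a description. SPARC entered this fit only through the libraries where it is high and is not to be read against that share. Leaving out pair 1 gave 3 calls, LAMB2, LAMB3 and FN1, all higher, with 2.4% of all genes called and 1.35% called higher. Leaving out pair 3 gave 2, PLAUR and VIM, both higher, with 1.12% called and 0.712% called higher. No member was called under all 3 of these settings.

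Lysyl oxidases crosslink collagen and elastin. LOXL2 was at 27.7, 41.9 and 54.0 CPM in WT and at 34.97, 84.7 and 59.8 CPM in LSD1 KO, higher in all 3 pairs but with a q value of 0.226 from edgeR with the block. LOX was low, from 1.66 to 2.99 CPM over all libraries.

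Among the proteases, the collagenases MMP1 and MMP13 and matrilysin MMP7 were read at the level of single counts, with at most 13 in any library. MMP14, a membrane-anchored metalloproteinase that activates others, was the only MMP of the list with enough counts for the test. It was at 16.8, 20.4 and 19.7 CPM in WT and at 17.4, 19.7 and 21.8 CPM in LSD1 KO. Its log2 fold change with the block was 0.048 (standard error 0.11).

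PLAUR, which holds urokinase at the cell surface, was at 58.4, 92.1 and 76.2 CPM in WT and at 78.9, 170 and 77.9 CPM in LSD1 KO. It was higher in all 3 pairs, by log2 differences of 0.43, 0.89 and 0.031, and did not pass the test (q value 0.243 from edgeR with the block). PLAU, its ligand, was at 43.1, 60.8 and 57.0 CPM in WT and at 33.8, 82.2 and 47.7 CPM in LSD1 KO. Its log2 fold change was 0.025 without the block and -0.053 with it, well within its standard errors of 0.31 and 0.15. PLAU shares 31.0% of its exonic bases with C10orf55 on the other strand, which had at most 19 counts.

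The inhibitors TIMP1 and TIMP2 were among the most abundant members. Per kilobase, TIMP1 was the highest member at 160 ± 49.5 CPM per kb in WT and 183 ± 61.3 in LSD1 KO (SD, n = 3). TIMP2 was at 151, 211 and 222 CPM in WT and at 166, 276 and 256 CPM in LSD1 KO. Both were higher in all 3 pairs, with log2 fold changes of 0.18 (standard error 0.091) and 0.24 (standard error 0.090) in the blocked fit, but neither passed (q values 0.438 and 0.3 from edgeR). TIMP3 was low, with 11, 42 and 32 counts across WT libraries and 8, 0 and 35 across LSD1 KO libraries, and the groups overlapped.

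A wider set of 163 matrix genes was examined beside the list. It comprised other collagen chains, other basement membrane proteins, collagen-processing enzymes, other proteases and inhibitors, and other glycoproteins and proteoglycans. Of these 163, 104 were tested and 34 were at or under the floor in all libraries. Without the block 0 passed in edgeR and 0 in DESeq2, while 6 had an unadjusted p under 0.05, beside 3.12% of all genes. With the block 3 were higher and 1 was lower in LSD1 KO, compared with the background of 1.05% and 0.549% of all genes. The median log2 fold change over the 104 was 0.12 without the block.

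By group, the calls with the block were 1 of 14 tested collagen chains, 0 of 8 basement membrane genes, 1 of 25 collagen-processing enzymes, 2 of 26 proteases and inhibitors, and 0 of 31 glycoproteins and proteoglycans. P4HA1, a subunit of the prolyl hydroxylase that stabilizes the collagen helix, was at 60.3, 81.6 and 72.1 CPM in WT and at 86.5, 144 and 115 CPM in LSD1 KO. The groups did not overlap, as for 4.23% of all genes tested in this direction. For P4HA1 the blocked edgeR fit gave a log2 fold change of 0.67 with standard error 0.094 and a q value of 0.0222. P4HA1 kept a q value under 0.1 when any pair was left out, from 0.00124 to 0.0562.

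ADAM19, a membrane-anchored sheddase, was at 67.5, 72.1 and 105 CPM in WT and at 129, 112 and 136 CPM in LSD1 KO (log2 fold change 0.65, q value 0.0537 from edgeR with the block). COL13A1, a transmembrane collagen of adhesion sites, was at 13.9, 30.5 and 25.1 CPM in WT and at 19.3, 55.1 and 35.8 CPM in LSD1 KO (log2 fold change 0.62, q value 0.0582). Its groups overlapped, and its q value without pair 3 was 0.144. MMP19 was lower, with 32, 25 and 24 counts across WT libraries and 8, 3 and 3 across LSD1 KO libraries (q value 0.0732 from edgeR with the block, 0.516 without it). Without pair 3 its q value was 0.175. Other enzymes that hydroxylate collagen chains did not pass in edgeR with the block, among them PLOD1 (q value 0.157) and P4HA2 (q value 0.878).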

How the data were processed

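RNA-seq was analysed in 3 WT and 3 LSD1 KO HCT116 libraries. The authors trimmed reads with Trimmomatic 0.39 and quantified them with Salmon (version 1.4.0 in the submitters' processing notes) against the GENCODE transcriptome of GRCh38. The authors deposited gene-level expected counts, given as integers and without scaling, and these were used unchanged. The step from transcripts to genes is not given in the sources used here. The ChIP-seq, RRBS and qPCR experiments were not analysed here.

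Counts were compared with edgeR 4.0.16 in R 4.3.3, using TMM factors, the filterByExpr filter with the groups, and the quasi-likelihood test. P-values were adjusted by Benjamini-Hochberg over all 17672 genes tested, with a threshold of 0.1 on the q value. CPM were scaled by TMM library sizes, and levels per kilobase used canonical transcripts of GENCODE v44lift37. Standard errors were derived from the fold change divided by the root of F. DESeq2 1.42.0 and other settings were alternatives. To check the pairing, deviations from group means were correlated across 17672 genes: same-numbered WT and LSD1 KO libraries had Pearson's r of 0.553, 0.553 and 0.404, and differently numbered ones ranged from -0.516 to 0.045. The numbers were therefore taken as pairs, a hint from the data and not from the labels. The steps were tested on simulated data.

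The members and lists were chosen with earlier results of these data known. The rule gave values in every library for members called in edgeR (either fit) or DESeq2, members whose groups did not overlap, FN1, VIM and SPARC. The members shown by library beyond this rule were chosen after their values were seen. From the wider lists, genes called in either edgeR fit were named. A further gene set for naming is not reported here. Any other gene outside the list was picked with its values in view. Gene positions and promoter windows came from RefSeq (GRCh38.p14), and overlaps of exons from GENCODE v44lift37.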

Additional observations from a re-analysis of the deposited data

How the results depend on the processing

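The alternatives are those set with the design, except a q value under 0.05 with the block, which was chosen after seeing the data. Without the block, 0 members were called. The number was 1 (SPARC) without the filter on low counts, 3 with the replicate block, and 3 with the block and a correction for transcript length and GC content, known for 98.8% of genes. Leaving out 1 pair with the block gave 2 to 6 calls, and leaving out 1 library without it gave 0 to 1, the 1 being SPARC without LSD1 KO replicate 2, where it passed the filter only through the libraries where it is high. In the wider set the number was 0, and with the replicate block 4, with or without the length and GC correction. Leaving out pair 1, 2 or 3 gave 5, 18 and 4, where 2.4%, 5.85% and 1.12% of all genes were called. The 5 were 3 higher and 2 lower, the 18 were 8 higher and 10 lower, and the 4 were all higher. The median log2 fold change of the members ranged from 0.034, without LSD1 KO replicate 2, to 0.30 when 1 library was left out, and from 0.11 to 0.25 when 1 pair was left out of the blocked fit. RLE factors, at least 10 counts in every library, DESeq2 and a q value under 0.05, each tried without the block, left both counts of calls at 0. With the replicate block, a q value under 0.05 left 0 of the members and 1 of the wider set (P4HA1).

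Signs changed under some alternatives for the members below. PLAU was -0.053 with the replicate block and -0.048 with the length and GC correction. It ranged from -0.41 to 0.28 over left-out libraries and from -0.32 to 0.092 over left-out pairs. The ranges over left-out libraries were -0.33 to 0.18 for COL6A2, -0.054 to 0.18 for LAMA5, -0.22 to 0.45 for THBS1, -0.034 to 0.13 for MMP14 and -0.074 to 0.45 for TIMP1. Over left-out pairs they were -0.12 to 0.054 for COL6A2, -0.88 to 0.0050 for COL12A1, -0.26 to 0.069 for COL18A1, -0.0024 to 0.11 for LAMA5, -0.15 to 0.37 for LAMC1, -0.10 to 0.31 for THBS1 and -0.094 to 0.56 for LOX. The cause was not tested. Counts limit COL17A1, TIMP3, SPARC and the members under the filter.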
